A study of Mus musculus with 35 samples.

Results

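The 8 genes described here encode the enzymes that modify and cross-link lysine in collagen: the 5 lysyl oxidases *Lox*, *Loxl1*, *Loxl2*, *Loxl3* and *Loxl4* and the 3 lysyl hydroxylases *Plod1*, *Plod2* and *Plod3*. They were taken by gene symbol from a table of 53465 mouse genes, and all 8 had a row and passed the filter on low counts in every comparison. RNA-seq had been made from 35 libraries of sorted pancreatic ductal adenocarcinoma cells, 10 from pancreas, 11 from liver and 14 from lungs. Every library came from KC-shSmad4 cells, tumor-derived lines that carry *Ptf1a*-Cre, *Rosa26* LSL-rtTA3-IRES-mKate2 and, at the *Col1a1* locus, a doxycycline-inducible GFP-linked short hairpin RNA against *Smad4*, together with a luciferase transgene. Cre is driven by a pancreatic promoter, so the alleles had been activated in the pancreas before the lines were made, and which line or hairpin gave each library is not given in the sources used here. The hosts were female *Foxn1*nu athymic nude mice, 6 to 8 weeks old at transplantation and without a normal T cell compartment. They were fed doxycycline chow and received the cells in the pancreas, in the spleen (for liver metastases) or in the tail vein (for lung metastases). According to the study's protocol, doxycycline was withdrawn in the groups labelled Smad4 on. This was 4 weeks after injection for pancreas, 5 weeks for liver and 6 weeks for lungs, and mKate2+ tumor cells were sorted 7 or 14 days later. The groups labelled Smad4 off are those that the study kept on doxycycline. At day 7 there were 3 off and 2 on libraries from pancreas, 2 off and 3 on from liver, and 4 off and 2 on from lungs. At day 14 there were 2 off and 3 on from pancreas, 3 off and 3 on from liver, and 4 off and 4 on from lungs.

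Lysyl hydroxylases act inside the cell, in the endoplasmic reticulum, where they add a hydroxyl group to lysines of procollagen before the triple helix folds. *Plod1* mainly serves helical lysines, *Plod2* serves the telopeptide lysines that set the type of cross-link, and *Plod3* also has glycosyltransferase activity. Lysyl oxidases are copper enzymes that are secreted and convert lysine and hydroxylysine in collagen and elastin to aldehydes, which then condense into cross-links that stiffen the matrix. *Lox* and *Loxl1* are made with a propeptide that is removed by procollagen proteinases, whereas *Loxl2*, *Loxl3* and *Loxl4* carry scavenger receptor domains instead. In pancreatic cancer the matrix is dense and mostly made by fibroblasts, with a share from the tumor cells.

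On the GRCm38 build used for the counts, *Lox* is at chr18:52516069-52529867 on the minus strand, *Loxl1* at chr9:58287738-58313186 (minus), *Loxl2* at chr14:69609068-69695834 (plus), *Loxl3* at chr6:83034173-83052562 (plus) and *Loxl4* at chr19:42593982-42612813 (minus). *Plod1* is at chr4:147909753-147936767 (minus), *Plod2* at chr9:92542223-92608428 (plus) and *Plod3* at chr5:136987019-136996648 (plus).

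*Loxl3* and *Plod3* share exon bases with an expressed gene on the opposite strand. *Loxl3* shares 535 bases, 11.6% of its exons, with *Htra2* (22.0 to 45 CPM, a gene's counts scaled by the library total), and *Plod3* shares 529 bases, 11.7%, with *Znhit1* (27.9 to 55.3 CPM). Whether strand was used in the counting is not given in the sources used here, so the values of *Loxl3* and *Plod3* may hold some reads of those neighbours.

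Promoter sequences were matched for 3 of the 8 genes, *Loxl4*, *Plod1* and *Plod3*. They are shown because the labels concern a SMAD factor and *Plod* genes are known hypoxia targets. Each is the 250 bases before the start site in RefSeq's GRCm38.p6 annotation, written 5′ to 3′ on the gene's strand, with a match to the SMAD binding element CAGAC (or its complement GTCTG) or to the hypoxia response element core ACGTG (or its complement CACGT) in capitals.
Loxl4, chr19:42612807-42613056: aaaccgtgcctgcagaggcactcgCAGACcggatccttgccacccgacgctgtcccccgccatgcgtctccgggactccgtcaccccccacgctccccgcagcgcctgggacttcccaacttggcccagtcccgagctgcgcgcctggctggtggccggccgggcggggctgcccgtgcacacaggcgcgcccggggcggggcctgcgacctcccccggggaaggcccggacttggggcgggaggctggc
Plod1, chr4:147936777-147937026: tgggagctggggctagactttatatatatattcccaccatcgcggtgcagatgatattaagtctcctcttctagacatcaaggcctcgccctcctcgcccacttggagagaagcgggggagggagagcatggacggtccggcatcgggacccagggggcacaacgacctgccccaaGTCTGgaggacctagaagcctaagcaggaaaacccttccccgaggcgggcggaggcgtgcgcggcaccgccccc
Plod3, chr5:136986769-136987018: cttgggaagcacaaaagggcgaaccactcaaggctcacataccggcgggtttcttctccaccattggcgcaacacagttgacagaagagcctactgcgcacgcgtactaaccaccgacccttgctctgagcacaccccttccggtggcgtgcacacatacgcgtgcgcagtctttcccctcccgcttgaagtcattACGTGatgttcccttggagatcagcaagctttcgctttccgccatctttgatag
CAGAC occurred in 42.2% and ACGTG in 16.6% of the 32851 promoters of the same length, searched on both strands, so a match here is a description of the letters only.

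Library totals ran from 11885461 to 43571007 counts (median 19415320), and the lowest count of any of the 8 genes was 20, for *Lox* in a lung library, so each gene was measured above the floor of 3 counts in every library. *Smad4* itself went against the labels, with 77.9 to 132 CPM under the label off (18 libraries) and 14.4 to 23.2 CPM under the label on (17 libraries). The groups are therefore named by label throughout, and every direction below is that of the library labelled on against the library labelled off. Whether labels or column names were exchanged was not tested. An exchange would reverse every label direction below. Carcinoma markers were present in all libraries (sum of 7 keratin and epithelial genes 2656 to 16571 CPM). The liver day 7 library labelled off, mouse 2, was the only paired-end library and stood apart: its median correlation was 0.944 with pancreas libraries and 0.833 with the other liver libraries, and its 8 fibroblast markers summed to 15112 CPM against 155 to 2335 CPM in the other liver libraries. Liver results labelled off are given with it, and the values without it are set beside those it moved by over 1.5 times or whose call it changed. Without it the liver day 7 group labelled off is 1 library, assumed to vary like the others. Counts of *mt-Co3* were present in 10 libraries (0 of 10 pancreas, 4 of 11 liver, 6 of 14 lungs), a split read from the counts of 1 gene and named by no label, and values without these libraries are given where they change a call. Fewer cells of a type and less RNA per cell cannot be told apart in these bulk samples. Each library is labelled as a separate mouse; because the lines per library are not given, the p-values measure the spread between these mice.

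**Figure D1:**
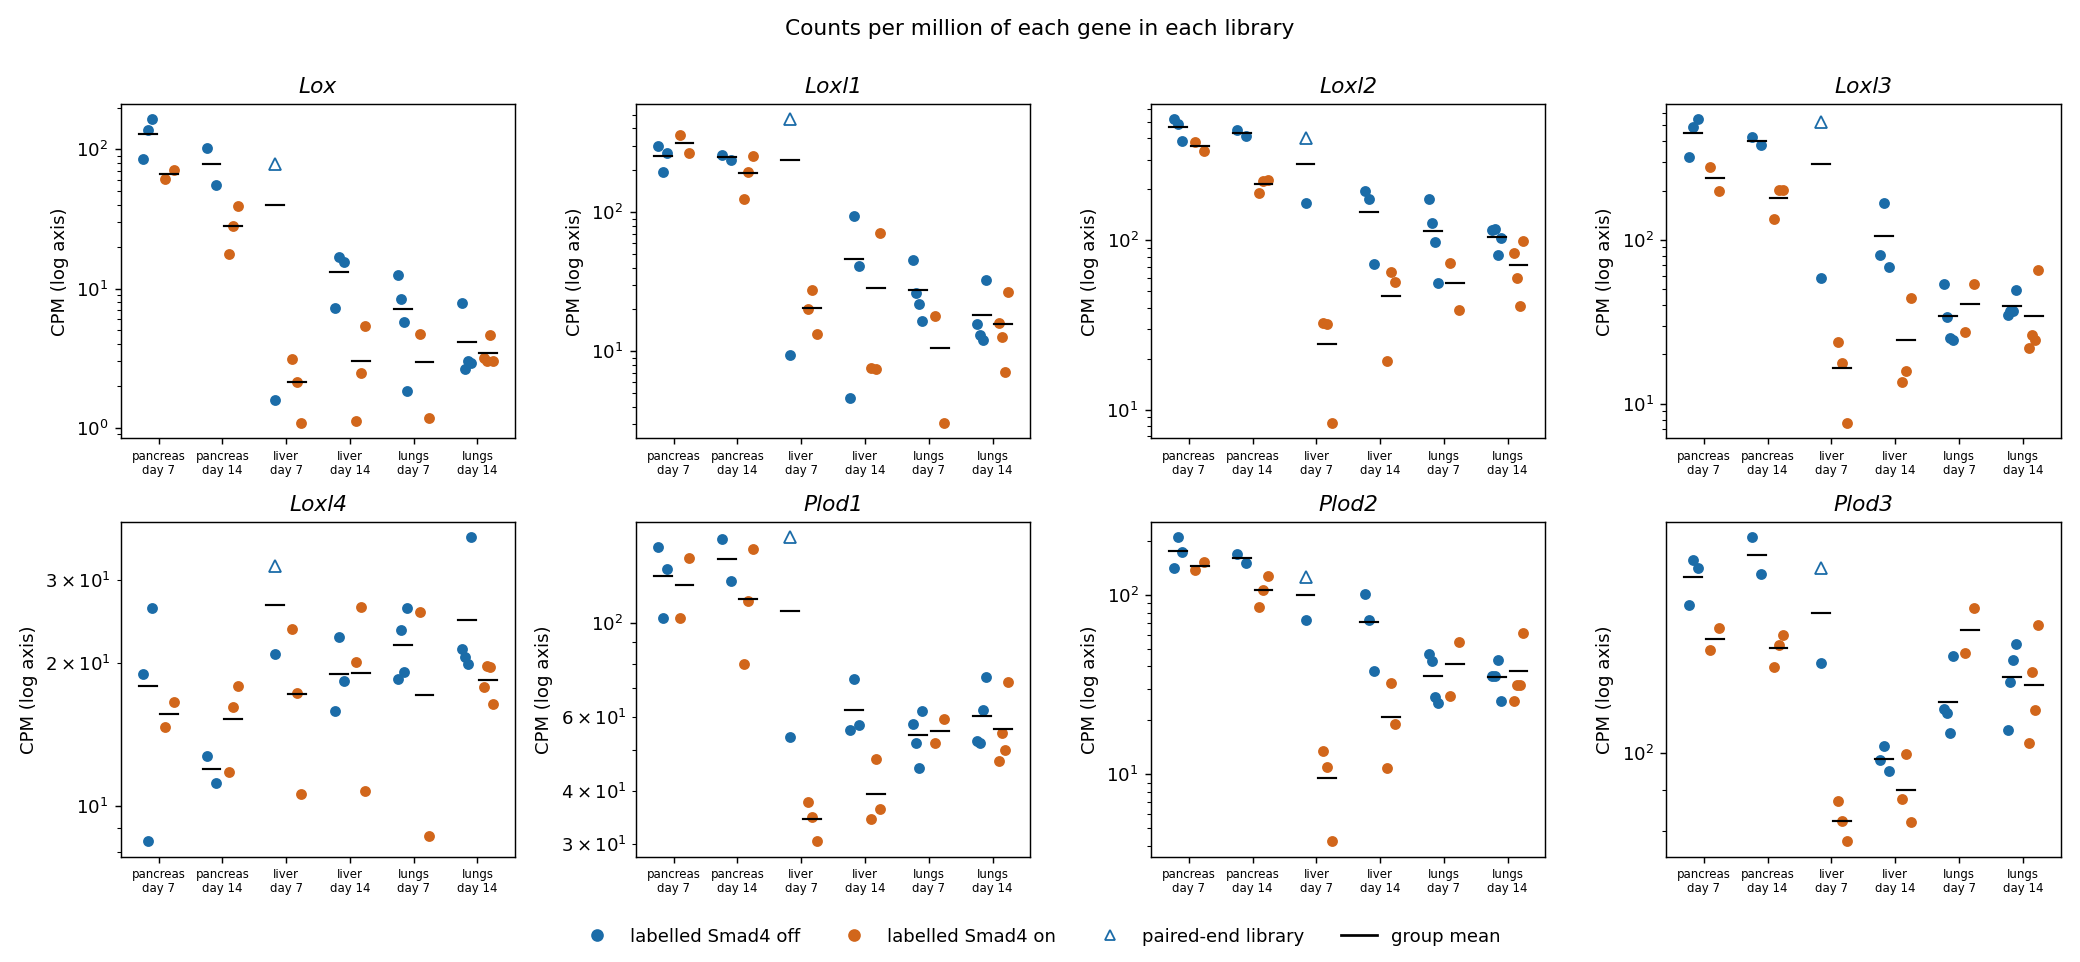
Level of each of the 8 genes in every library (CPM, log axis), by organ, day and label, with 1 point per library. The pancreas libraries and the paired-end liver library lie highest for *Lox*, *Loxl1* and *Plod1*, whereas *Loxl4* stays between 8.43 and 36.8 CPM in all organs.

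The most abundant transcripts per length differed between organs. In pancreas *Loxl1*, *Loxl2* and *Loxl3* were on top, with median levels of 77.5, 71.2 and 65.5 CPM per kilobase of transcript over the 10 libraries of both labels. Their ranges overlapped (37.5 to 108, 35.4 to 96.0 and 29.2 to 118), so their order is not separated. *Plod3* (32.7), *Plod2* (27.2) and *Plod1* (19.1) followed, then *Lox* (13.7) and *Loxl4* (3.67). In liver and in lungs, over both labels, *Plod3* had the highest median, 21.1 and 27.5 CPM per kilobase, and *Loxl2* the next, 12.1 and 16.8. Within liver the order depended on the label: *Loxl2* had a median of 32.5 and *Plod3* of 22.6 labelled off, against 5.99 and 18.8 labelled on. *Lox*, the founding member of the family, was lowest in both, at 0.648 and 0.642. *Plod3* was the highest hydroxylase per length in all libraries but 1, a pancreas library labelled off in which *Plod2* was higher.

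The make-up of both families by label is given as a description, with no test. Summed per kilobase, the 5 lysyl oxidases reached a median of 279 in pancreas labelled off (range 245 to 311) and 175 labelled on (109 to 256). In liver the sums were 60.1 (48.3 to 353, or to 106 without the paired-end library) labelled off and 23.2 (9.99 to 45.3) labelled on, and in lungs 39.8 (27.3 to 64.8) and 28.0 (20.7 to 45.3). The liver sums did not overlap between labels, whereas the lung sums did. *Loxl1* was the highest oxidase in 5 of 5 pancreas libraries labelled on, while *Loxl3* led in 4 of 5 labelled off. *Loxl2* led in all 8 lung libraries labelled off. Among the hydroxylases in liver, *Plod2* made up a median of 27.9% of the summed level labelled off and 8.56% labelled on, and *Plod3* 48.0% and 71.2%.

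**Figure D2:**
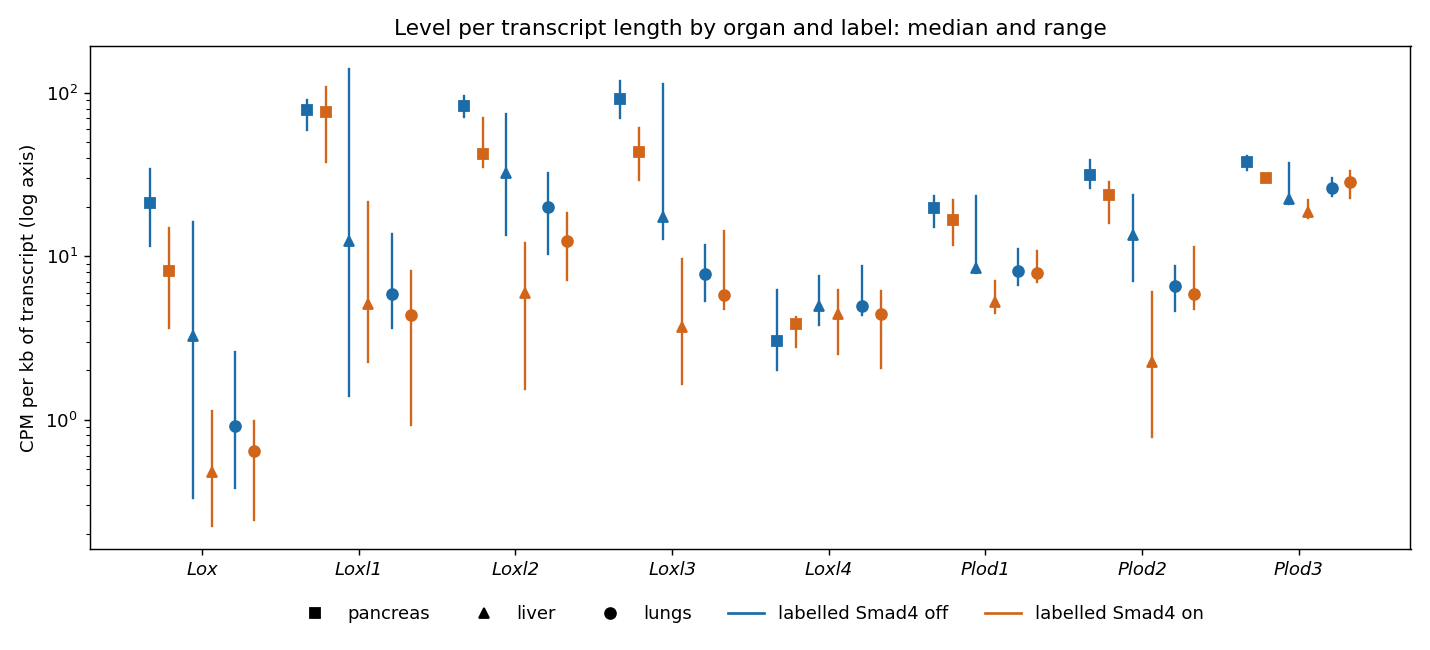
Levels per kilobase of transcript (CPM per kb, log axis) of the 8 genes by organ and label. In pancreas *Loxl1*, *Loxl2* and *Loxl3* lie highest, whereas in liver and lungs *Plod3* and *Loxl2* have the highest medians, with *Loxl2* above *Plod3* in liver labelled off, and *Lox* is lowest.

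The organs were compared within each label over both days, with edgeR's quasi-likelihood test, Benjamini-Hochberg adjustment over all genes, and a call at a fold above 2 and an adjusted p under 0.05. With the libraries labelled off, 6 of the 8 genes were called lower in lungs than in pancreas, where 7.58% of all genes were called lower. *Lox* fell by 4.38 on the log2 scale (SE 0.62, adjusted p = 0.000101), from 55.7 to 165 CPM in pancreas (median 102) to 1.82 to 12.5 CPM in lungs (median 4.38). The fall was also called for *Loxl3* (-3.62, SE 0.46, adjusted p = 4.47e-05), *Loxl1* (-3.59, SE 0.72, adjusted p = 0.00128), *Plod2* (-2.39, SE 0.25, adjusted p = 1.73e-05), *Loxl2* (-2.17, SE 0.29, adjusted p = 7.43e-05) and *Plod1* (-1.33, SE 0.26, adjusted p = 0.00105). *Plod3* had a smaller difference of -0.61 (SE 0.17, adjusted p = 0.00902) that passed the adjusted p but not the fold. *Loxl4* was the exception, at 0.52 (SE 0.28, adjusted p = 0.151), with medians of 12.7 CPM in pancreas and 21.0 CPM in lungs. The pancreas and lung ranges of 7 genes, all but *Loxl4*, did not overlap, where 8.27% of all genes lay apart in that direction.

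With the libraries labelled on, the same 6 symbols were called lower in lungs than in pancreas (7.13% of all genes were called lower), namely *Loxl1* (-4.15, SE 0.64, adjusted p = 0.000255), *Lox* (-3.69, SE 0.48, adjusted p = 6.6e-05), *Loxl3* (-2.45, SE 0.41, adjusted p = 0.000544), *Loxl2* (-2.11, SE 0.41, adjusted p = 0.00155), *Plod2* (-1.65, SE 0.39, adjusted p = 0.00546) and *Plod1* (-1.05, SE 0.16, adjusted p = 0.000248). *Plod1* was below the fold (-0.97 to -0.99) without the pancreas day 7 library labelled on, mouse 2, the lung day 7 library labelled on, mouse 1, or the pancreas day 14 library labelled on, mouse 3, which left 5 calls. *Plod3* was at 129.6 CPM in lungs and 136 CPM in pancreas (medians), a difference of -0.07 that was not called. In liver against pancreas labelled on, 6 genes were called lower too, where 11.4% of all genes were, namely *Lox* (-4.03, SE 0.47, adjusted p = 9.7e-06), *Loxl3* (-3.27, SE 0.43, adjusted p = 2.15e-05), *Loxl1* (-3.25, SE 0.60, adjusted p = 0.000465), *Plod2* (-3.01, SE 0.41, adjusted p = 2.91e-05), *Loxl2* (-2.94, SE 0.42, adjusted p = 4.7e-05) and *Plod1* (-1.62, SE 0.16, adjusted p = 2.91e-06). The comparisons of 1 label share their pancreas, liver and lung libraries and are not independent.

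In liver against pancreas labelled off, 2 genes were called lower, *Lox* (-2.10, SE 0.67, adjusted p = 0.0437) and *Loxl2* (-1.10, SE 0.33, adjusted p = 0.0345), where 3.43% of all genes were. The number of calls depended on the paired-end library. Without it 6 genes were called lower, namely *Lox* (-3.22), *Loxl1* (-2.81), *Loxl3* (-2.33), *Loxl2* (-1.53), *Plod2* (-1.25) and *Plod1* (-1.23), in a fit that called 1265 of 17572 genes lower. The same 6 were called in the libraries without *mt-Co3* counts (1352 of 16815 genes called lower). With a term for those libraries *Lox* (adjusted p = 0.0517) and *Loxl2* (adjusted p = 0.0502) were not called, and *Loxl3* (-1.67, adjusted p = 0.034) and *Plod1* (-1.05, adjusted p = 0.00913) were. Leaving out other single libraries gave 0 to 2 calls.

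Liver and lungs differed in *Plod2* in both labels, in opposite directions. Labelled off, *Plod2* was higher in liver (1.39, SE 0.24, adjusted p = 0.00352) and so was *Loxl3* (2.41, SE 0.45, adjusted p = 0.00464), and these 2 calls held without the paired-end library (1.10, adjusted p = 0.00987, and 1.34, adjusted p = 0.00739). *Lox* (2.28, adjusted p = 0.0316) and *Loxl2* (1.07, adjusted p = 0.0398) were also called higher in liver, where 1.62% of all genes were, but without the paired-end library they were at 1.14 and 0.60 and were not called, nor were they in the libraries without *mt-Co3* counts. Labelled on, *Plod2* was lower in liver (-1.35, SE 0.38, adjusted p = 0.019), where 5.04% of all genes were called lower, with liver libraries at 4.23 to 32.5 CPM and lung libraries at 25.6 to 61.8 CPM. The *Plod2* call was lost without the lung day 7 library labelled on, mouse 2, or the lung day 14 library labelled on, mouse 4, and within the libraries without *mt-Co3* counts. *Plod3* (-0.55, SE 0.10, adjusted p = 0.00177) and *Plod1* (-0.56, SE 0.16, adjusted p = 0.0188) passed the adjusted p only.

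**Figure D3:**
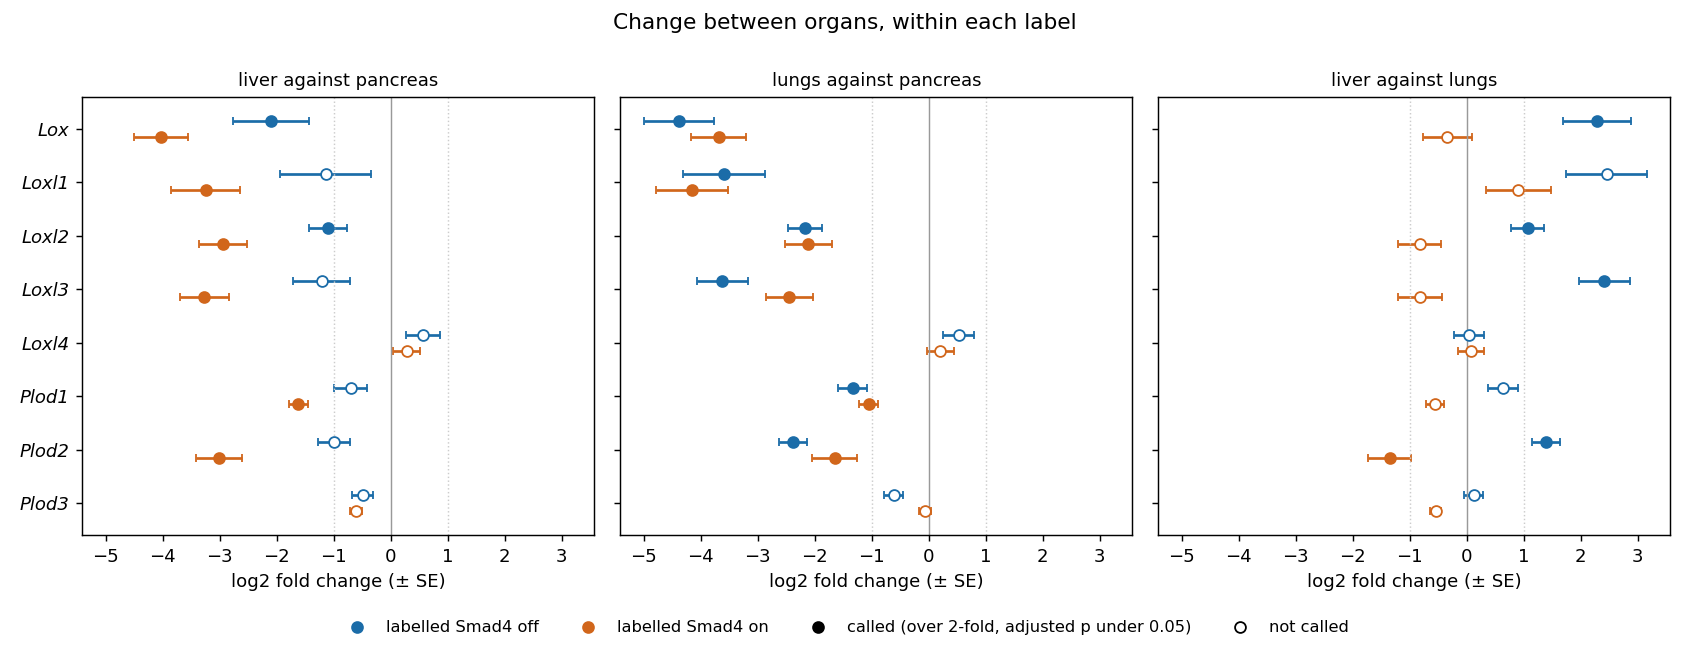
Log2 fold change with its standard error of the 8 genes in the organ comparisons, by label. *Lox*, *Loxl1*, *Loxl2*, *Loxl3*, *Plod1* and *Plod2* lie below 0 in lungs against pancreas and in liver against pancreas, and *Loxl4* lies near 0.

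Fibroblast markers also differed from pancreas in some of these comparisons. Their 8 genes, among them *Dcn*, *Lum* and *Pdgfra*, were all called lower in lungs than in pancreas in both labels, with medians of -4.34 labelled off and -4.52 labelled on, and 8 of 8 were called lower in liver labelled on (median -4.18). No fibroblast marker was at 0 in any organ. Between liver and lungs the marker sums of the single-end libraries overlapped. Labelled off they were at 155 to 2335 CPM in liver and 112 to 1743 CPM in lungs. Labelled on they were at 235 to 1713 and 124 to 1424 CPM. Set against a level of 5000 CPM of summed fibroblast markers, chosen after the values were seen, the 11 libraries above it were the 10 from pancreas and the paired-end liver library, and the 24 below it summed to 112 to 2335 CPM. *Lox* was at 17.6 CPM or more in the first set and at 16.97 CPM or less in the second, *Loxl1* at 124 to 464 against 3.05 to 93.1 CPM, and *Plod1* at 79.7 to 159 against 30.4 to 74.6 CPM. The other 5 genes overlapped between the sets. The share of all genes that lay apart between these sets was not counted, so this separation is a description only. Other markers differed between organs too. Carcinoma marker sums had medians of 4500 CPM in pancreas, 14440 CPM in liver and 9715 CPM in lungs. Acinar marker sums had medians of 1700, 10.5 and 7.57 CPM. The part of the fibroblast and other markers in the organ differences was not tested.

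**Figure D4:**
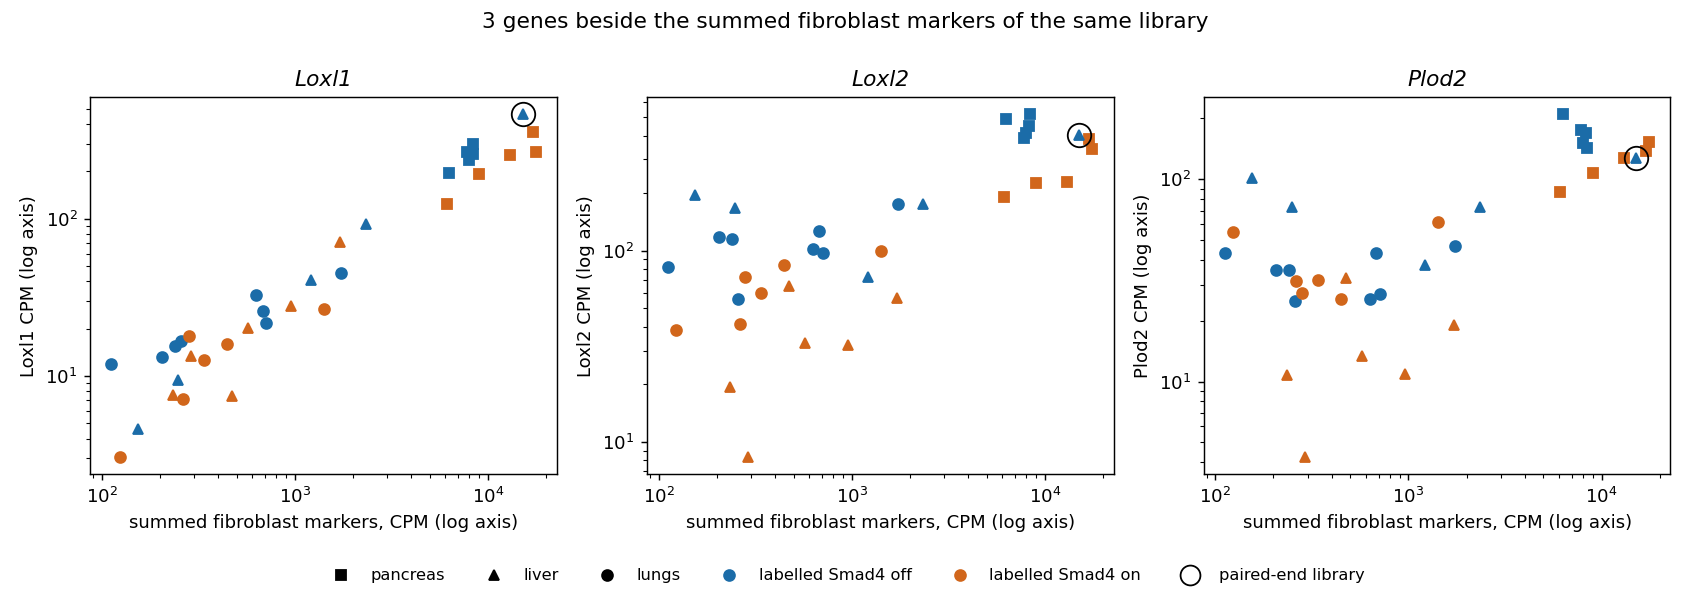
*Loxl1*, *Loxl2* and *Plod2* (CPM) against the summed fibroblast markers (CPM), both on log axes, with 1 point per library and the paired-end liver library circled. *Loxl1* separates the libraries above and below 5000 CPM of fibroblast markers, whereas *Loxl2* and *Plod2* overlap between them.

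In pancreas at day 14, *Loxl2* and *Loxl3* were lower in the libraries labelled on. *Loxl2*, which acts on collagen type IV and has roles in invasion, was at 449 and 414 CPM labelled off and at 192, 225 and 229 CPM labelled on. *Loxl3* was at 423 and 378 CPM labelled off and at 134, 203 and 201 CPM labelled on. Neither pair of groups overlapped, as 15.2% of all genes did not in that direction. Both genes fell, *Loxl2* (-1.10, SE 0.10, adjusted p = 0.00103) and *Loxl3* (-1.26, SE 0.18, adjusted p = 0.00832). These were 2 of the 8 genes called lower, against 1.26% of all genes. *Plod2* (-0.68, SE 0.15, adjusted p = 0.0314) and *Plod3* (-0.48, SE 0.09, adjusted p = 0.0107) passed the adjusted p but not the fold, and *Lox* (-1.58, SE 0.42, adjusted p = 0.0864) did not pass the adjusted p in edgeR and was called by DESeq2 along with *Loxl2* and *Loxl3*, at 102 and 55.7 CPM labelled off against 17.6, 28.2 and 39.1 CPM labelled on. DESeq2 called 217 of 26176 genes lower. In edgeR *Loxl1*, *Loxl4* and *Plod1* ranged from -0.48 to 0.25. *Loxl2* was called in all 5 fits that left out 1 library, and *Loxl3* was lost without either library labelled off. In 1 fit of all 12 groups neither was called. Carcinoma markers were higher in these libraries labelled on, at 4374 to 4626 CPM labelled off and 5944 to 8265 CPM labelled on, whereas fibroblast markers overlapped (8009 to 8316 and 6115 to 13050 CPM); their part was not tested.

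At day 7 in pancreas no member was called (1.33% of all genes were, and 23.1% had an unadjusted p under 0.05). DESeq2 called 1 member lower, *Lox*, where 171 of 26097 genes were called lower. *Lox* (-0.997, SE 0.30, adjusted p = 0.132), *Loxl3* (-0.94, SE 0.29, adjusted p = 0.134), *Loxl2* (-0.39, SE 0.16, adjusted p = 0.199) and *Plod3* (-0.28, SE 0.11, adjusted p = 0.206) had groups that did not overlap, all lower labelled on, as 20% of all genes did. *Lox* was at 86.0, 137 and 165 CPM labelled off and at 60.9 and 71.3 CPM labelled on. Over both days, the *Loxl2* (388 to 519 against 192 to 382 CPM), *Loxl3* (322 to 545 against 134 to 281 CPM) and *Plod3* (153 to 185 against 128 to 143 CPM) values of the 5 libraries of each label did not overlap, as 2.7% of all genes did not in that direction. Fibroblast markers went the other way at day 7: their sums were 6321 to 8385 CPM labelled off and 17020 to 17648 CPM labelled on, with 2 of 8 called higher. Acinar markers were at 1675 to 2644 against 622 to 855 CPM, with 2 called lower, and leukocyte markers at 63.0 to 89.5 against 43.1 to 54.5 CPM. Their part in these values was not tested.

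In liver at day 7 the differences were large and no member was called by edgeR (0.444% of all genes were, and 27.1% had an unadjusted p under 0.05). *Plod2* was at 73.0 CPM in mouse 1 and 127 CPM in mouse 2 labelled off, and at 13.4, 10.96 and 4.23 CPM labelled on (-3.59, SE 0.56, adjusted p = 0.0578). *Loxl2* was at 167 and 401 CPM labelled off and 32.7, 32.0 and 8.31 CPM labelled on (-3.76, SE 0.73, adjusted p = 0.0689). *Loxl3* (-4.40, SE 1.05, adjusted p = 0.084), *Plod3* (-1.03, SE 0.22, adjusted p = 0.075) and *Plod1* (-1.85, SE 0.50, adjusted p = 0.0999) also had groups that did not overlap, as 15.9% of all genes did in that direction. *Lox* (-4.50, SE 1.502, adjusted p = 0.137) and *Loxl1* (-3.80, SE 1.43, adjusted p = 0.168) had overlapping groups and turned direction without the paired-end library, to 0.35 and 1.05. Without it *Loxl2* was at -2.85, *Loxl3* at -1.90, *Plod1* and *Plod3* at -0.71 each, and *Plod2* at -3.00. That fit sets 1 library labelled off against 3, so its spread comes from the libraries labelled on alone. DESeq2 called 7 members lower, where 1246 of 29228 genes were called lower. Without mouse 1, where the paired-end library stands alone, the median log2 fold change of the 8 genes was -4.13. In the libraries without *mt-Co3* counts, again with 1 library labelled off and a spread from those labelled on alone, 4 members and 3496 of 16792 genes were called, *Loxl2*, *Loxl3* and *Plod2* lower and *Loxl1* higher (1.27). Hepatocyte markers were at 68.8 to 257 CPM labelled off and 943 to 1040 CPM labelled on, leukocyte markers at 12.3 to 15.2 and 33.1 to 51.5 CPM, pericyte and smooth muscle markers at 5.59 to 12.9 and 41.5 to 151.5 CPM, and carcinoma markers at 3426 to 12460 and 14350 to 16570 CPM. Their part was not tested.

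At day 14 in liver, without a library of this kind, 5 genes had an unadjusted p under 0.05, all lower labelled on (5.07% of all genes), and none was called, as no gene of the whole table was (1447 genes, 9.68%, had an unadjusted p under 0.05, and DESeq2 called 331). *Lox* (-2.18, SE 0.63, adjusted p = 0.375), *Loxl3* (-2.16, SE 0.56, adjusted p = 0.357), *Plod2* (-1.86, SE 0.52, adjusted p = 0.372), *Loxl2* (-1.73, SE 0.56, adjusted p = 0.412) and *Plod1* (-0.72, SE 0.19, adjusted p = 0.357) all had groups that did not overlap, as 5.82% of all genes did in that direction. *Plod2* was at 101, 73.1 and 37.9 CPM labelled off and at 10.8, 32.5 and 19.1 CPM labelled on. *Lox* was at 7.19, 16.97 and 15.6 CPM against 1.11, 2.47 and 5.41 CPM. DESeq2 called *Lox*, *Loxl3* and *Plod2* lower, where 198 of 28631 genes were called lower. Taking the 4 single-end libraries labelled off and the 6 labelled on over both days, *Loxl2* (72.8 to 195 against 8.31 to 65.4 CPM), *Loxl3* (58.4 to 169 against 7.59 to 44.0 CPM), *Plod2* (37.9 to 101 against 4.23 to 32.5 CPM) and *Plod1* (53.8 to 73.7 against 30.4 to 47.6 CPM) did not overlap, against 4.34% of all genes. The fibroblast marker sums of these libraries did overlap, at 155 to 2335 CPM labelled off (median 734) and 235 to 1713 CPM labelled on (median 524). At day 14 hepatocyte markers did not overlap, at 209 to 479 CPM labelled off and 651 to 696.5 CPM labelled on, nor did leukocyte markers, at 21.9 to 56.6 and 63.4 to 137.6 CPM, and their part was not tested.

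In lungs no member was called on either day. At day 7 no gene of the table was called (793 genes, 5.22%, had an unadjusted p under 0.05, and DESeq2 called 108 genes and no member), and the 8 genes ranged from -1.34 to 0.40 with adjusted p of at least 0.974. *Plod3* was at 113, 112, 106 and 132 CPM labelled off and at 133 and 151 CPM labelled on, and was the only 1 of the 8 whose groups lay apart with the higher level labelled on (3.32% of all genes did). At day 14, where 0.0271% of all genes were called (1485 genes had an unadjusted p under 0.05, and DESeq2 called 213 genes and no member), *Loxl2* was at 115, 117, 82.1 and 103 CPM labelled off and 83.9, 60.2, 41.2 and 99.2 CPM labelled on (-0.59, SE 0.24, adjusted p = 0.458). With the replicate block, an alternative fit by mouse number, *Loxl2* was at -0.66 (SE 0.17, adjusted p = 0.102) and not called. The mouse numbers are not shown to pair the samples. Without the block the other 7 ranged from -0.48 to 0.07. *Loxl4* alone had groups that did not overlap, lower labelled on, at 19.9 to 36.8 against 16.4 to 19.7 CPM (2.26% of all genes did).

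**Figure D5:**
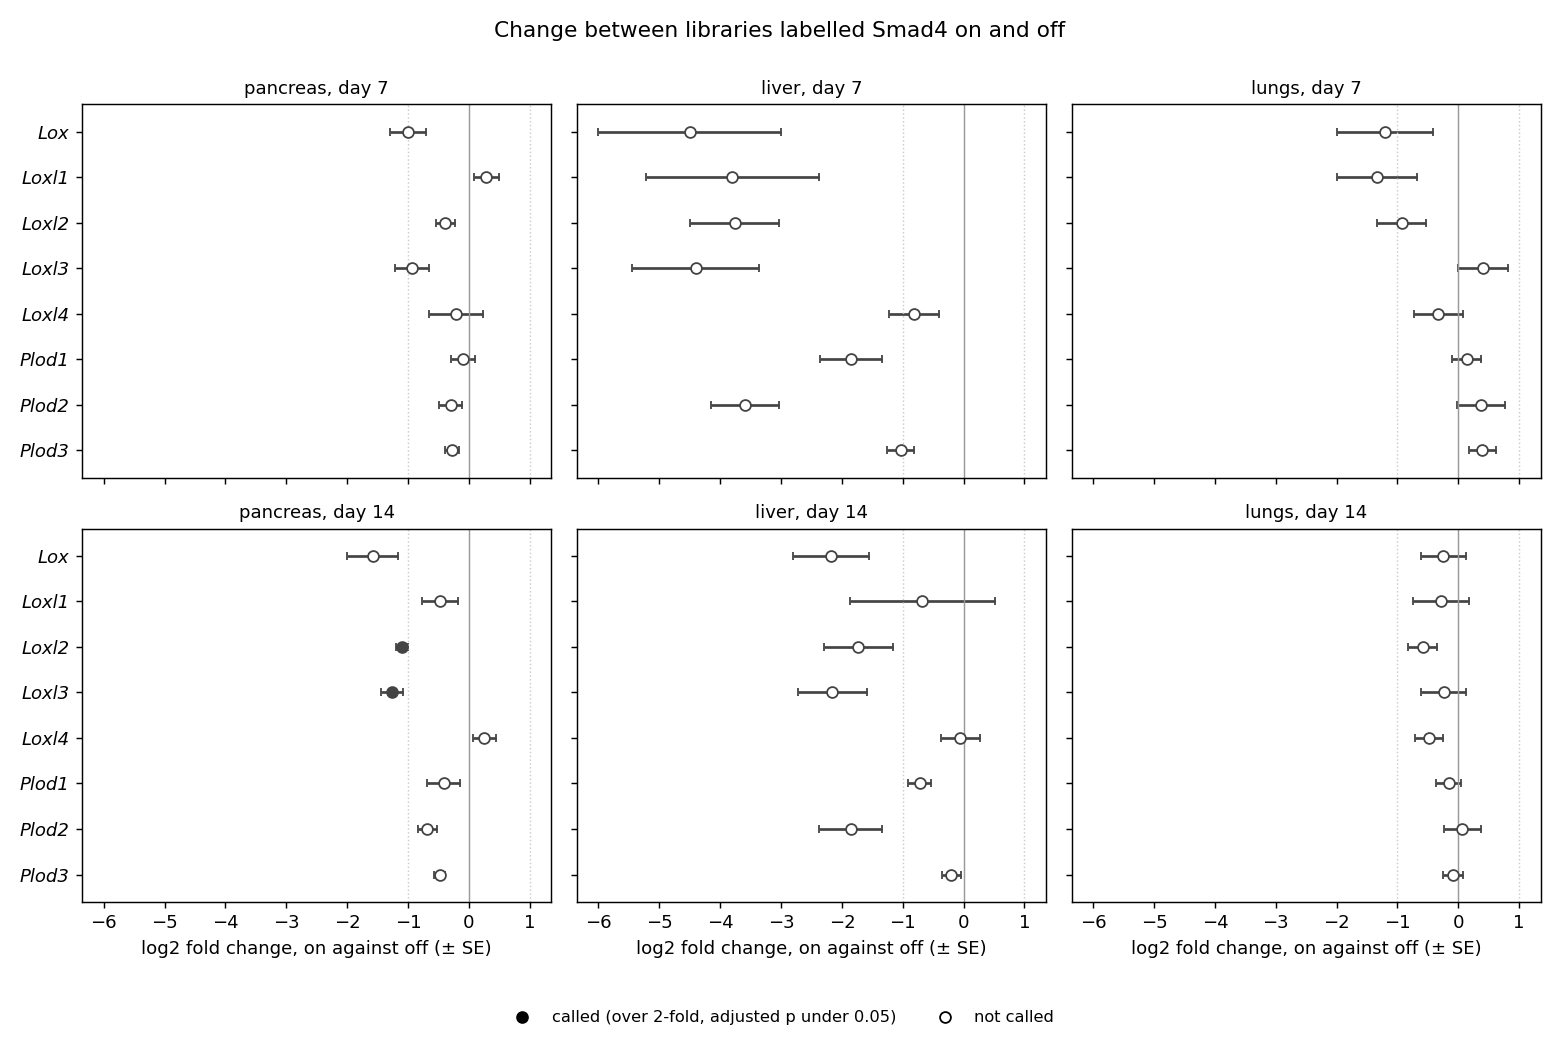
Log2 fold change with its standard error, labelled on against labelled off, of the 8 genes in each organ and day. In liver all 8 genes lie below 0 on both days, though *Lox* and *Loxl1* at day 7 were above 0 without the paired-end library. In pancreas at day 14 *Loxl2* and *Loxl3* were called, and in liver and lungs no gene was.

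Whether the label difference was larger in liver than in lungs was tested with an interaction term. At day 7 it was called for *Plod2*, at -3.89 (SE 0.68, adjusted p = 0.0372), where 0.984% of all genes were called lower. *Loxl3* (-4.72, SE 1.05, adjusted p = 0.0527), *Plod3* (-1.36, SE 0.30, adjusted p = 0.0524), *Plod1* (-1.91, SE 0.54, adjusted p = 0.0847) and *Loxl2* (-2.77, SE 0.81, adjusted p = 0.0913) were not called. The *Plod2* call was lost in 8 of the 11 fits that left out 1 library, among them that without the paired-end library (-3.33, adjusted p = 0.0812), where *Loxl3* was at -2.26 and *Plod1* at -0.81. The libraries without *mt-Co3* counts hold 1 liver library labelled off at day 7. With them the median interaction term of the 8 genes was -0.86, against -2.57 with all libraries. At day 14 no gene of the table was called (478 genes had an unadjusted p under 0.05, and DESeq2 called 4 genes and no member), and *Lox* (-1.94, SE 0.72), *Plod2* (-1.92, SE 0.61) and *Loxl3* (-1.92, SE 0.69) had an adjusted p of 1.

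Across the 6 label comparisons, *Lox* and *Loxl2* had a negative log2 fold change in 6 of 6, though *Lox* was above 0 in liver at day 7 without the paired-end library (0.35) and reached 0.20 in lungs at day 14 leaving out 1 library. *Loxl2* had an unadjusted p under 0.05 in 5 and was called in 1. *Loxl4* never had an unadjusted p under 0.05 in any comparison of labels or organs, and was at 8.43 to 36.8 CPM in all 35 libraries. The median log2 fold change of the 8 genes was -0.29 in pancreas at day 7, -3.68 in liver at day 7 (-0.71 without the paired-end library and -0.67 in the libraries without *mt-Co3* counts), -0.10 in lungs at day 7, -0.58 in pancreas at day 14, -1.22 in liver at day 14 and -0.24 in lungs at day 14, beside medians of all genes between -0.06 and 0.02.

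The other genes of collagen maturation were read in the same comparisons. In pancreas at day 14, where 1.26% of all genes were called lower, 2 of the 6 procollagen processing genes that passed the filter (of 8 listed) were called lower: *Bmp1*, the proteinase that removes the procollagen C-propeptide and also activates lysyl oxidase (-1.26, SE 0.13, adjusted p = 0.00181), and *Adamts14*, an N-propeptidase (-1.24, SE 0.22, adjusted p = 0.0165). Fibronectin, *Fn1*, a matrix partner of lysyl oxidase, was called lower as 1 of 6 binding partners (-1.25, SE 0.12, adjusted p = 0.00135), and *Has2*, a hyaluronan synthase, as 1 of 7 TGF-beta target genes (-1.13, SE 0.18, adjusted p = 0.00699). Among 11 substrates *Col1a2* was called higher (1.58, SE 0.31, adjusted p = 0.0334), and none of 12 hypoxia genes was called. At day 7 *Col3a1* (1.15, SE 0.18, adjusted p = 0.0354) and *Col6a2* (1.09, SE 0.18, adjusted p = 0.0363) were called higher. In liver and in lungs no gene of these lists was called between labels on either day. *Col3a1* is also 1 of the 8 fibroblast markers.

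Between organs, many genes of these lists were called in the direction of the enzymes. In lungs against pancreas labelled off, where 7.58% of all genes were called lower, 11 of 15 folding and hydroxylation partners were called lower, led by *Fkbp10*, a chaperone of lysyl hydroxylase (-4.51, SE 0.40, adjusted p = 4.15e-06), with 4 of 6 processing genes, 6 of 11 substrates (*Col1a1* -4.95), 4 of 6 binding partners (*Postn* -6.44) and 4 of 12 hypoxia genes (*Car9* -1.84). The medians were -1.29 for the partners, -1.34 for processing, -1.50 for substrates, -2.41 for binding partners and -0.74 for hypoxia genes, beside -0.01 over all genes. In liver against pancreas labelled on, where 11.4% of all genes were called lower, 10 of 15 partners, 6 of the 6 processing genes tested, 11 of 11 substrates, 5 of 6 binding partners, 2 of 12 hypoxia genes and 3 of 7 TGF-beta targets were called lower. In liver against lungs labelled off, *Fkbp10* (3.00, adjusted p = 0.00037), *P4ha1* (1.34, adjusted p = 0.0072) and *P4ha3* (1.46, adjusted p = 0.0136), a chaperone and 2 prolyl hydroxylase subunits, were called higher in liver, and *Car9*, a hypoxia-induced carbonic anhydrase, by 1.77 (adjusted p = 0.00281).

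Across the 35 libraries each enzyme was compared with 13543 genes by Pearson's r of log2(CPM + 0.5), as a description, since libraries share organ and composition. *Loxl1* was most like *Col1a1* (0.983), *Rcn3* (0.981) and *Ssc5d* (0.978). *Lox* was most like *Adam19* (0.954), *Loxl2* like *Fermt2* (0.957), *Loxl3* like *Snx9* (0.967) and *Plod2* like *Timp1* (0.964). *Plod1* was most like *Aebp1* (0.937) and *Plod3* like *S1pr2* (0.907). *Loxl4* had no close match, its nearest being *Pcbp3* (0.696). Between members, *Loxl2* and *Plod2* were most alike (0.940) and *Loxl3* and *Loxl4* least (-0.183).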

How the data were processed

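The deposited table holds raw read counts per gene for 35 libraries, and its columns were matched to samples by name. Per the submitters' processing notes the authors used FastQC 0.11.5, Trimmomatic 0.36, STAR 2.5.3a and featureCounts 1.6.3 with GRCm38. Libraries were polyA-selected and stranded; the strand setting of the counting is not given in the sources used here. Counts were tested with edgeR 4.0.16 (quasi-likelihood, robust, TMM, filterByExpr with a minimum count of 10) in R 4.3.3. Label comparisons were fitted within organ and day. Organ comparisons were fitted within label with day as a term. A call needed a fold above 2 and a Benjamini-Hochberg adjusted p under 0.05 over all genes. Scripts were tested on simulated data. CPM is counts over the library total, and levels per kilobase used the transcript length in the table. Total counts limit the precision, and floors cover counting error only.

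Values with error and adjusted p are printed for members with an unadjusted p under 0.05 in a comparison, and the others by their range. From the other lists at most 3 called genes with the lowest adjusted p are named in a comparison. The members and lists were chosen with earlier results of these data known. Alternatives were DESeq2 1.42.0, its size factors, other filters, no fold threshold, 1 fit of all 12 groups, a replicate block, a term for libraries with *mt-Co3* counts, and leaving out each library; the fit without those libraries was chosen after seeing the data. In lungs at day 14, deviations of the same-numbered libraries from their group means correlated at 0.470, 0.536, 0.628 and 0.556. Libraries 1 and 2 correlated best with each other's number. Under both labels *mt-Co3* counts were present in mice 3 and 4 and absent in mice 1 and 2. The mouse numbers are therefore not shown to pair the samples, and the replicate block is an alternative fit only. In liver at day 14 the correlations were 0.080, 0.073 and 0.540, and elsewhere only 2 numbers were shared.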

Additional observations from a re-analysis of the deposited data

Results flagged for a closer look

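Among 24 sets of 4 lung libraries tested for a single library far from the rest, 6 had one. Chance gives about 1 in 20 for a single set. These sets share libraries and are not independent, so their number is not read against that rate. All 6 were highest values at day 14. *Lox* was at 7.86 CPM in mouse 1 labelled off and at 4.61 CPM in mouse 3 labelled on. Mouse 4 labelled off was highest for *Loxl3* (49.8 CPM) and *Loxl4* (36.8 CPM), and mouse 4 labelled on for *Loxl3* (65.5 CPM) and *Plod2* (61.8 CPM). The label difference of *Plod2* at day 7 was larger in liver than in lungs by -3.89 on the log2 scale (interaction term, edgeR, adjusted p = 0.0372). It was called in 3 of the 11 fits that left out 1 library. It was not called without the paired-end library or with the replicate block. *Plod3* at day 7 lay lower labelled on in every pancreas library (-0.28) and in every liver library (-1.03), and higher in every lung library (0.39). The difference between pancreas and lungs was not tested, and that between liver and lungs had an adjusted p of 0.0524.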

How the results depend on the processing

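The numbers of members called between labels depended most on liver at day 7, with 0 in edgeR, 7 in DESeq2, 2 with no filter on low counts, 1 with at least 10 counts in every library, 6 in 1 fit of all 12 groups and 4 in libraries without *mt-Co3* counts, and 0 to 7 leaving out 1 library. There *Lox* and *Loxl1* reversed, to 0.35 and 1.05 without the paired-end library (labelled off, mouse 2) and to 0.66 and 1.27 in libraries without *mt-Co3* counts, and leaving out 1 library they ranged from -5.44 to 0.35 and from -4.73 to 1.05. For pancreas at day 7 DESeq2 called 1, and leaving out 1 library gave 0 to 1. For pancreas at day 14, 4 were called with no fold threshold, 0 in 1 fit of all 12 groups, and 1 to 2 leaving out 1 library. For liver at day 14 DESeq2 called 3 and the fit of all 12 groups 1. Liver against pancreas labelled off gave 0 with no filter, 6 in libraries without *mt-Co3* counts and 0 to 6 leaving out 1 library. A term for *mt-Co3* counts left 2 there, *Loxl3* and *Plod1* in place of *Lox* and *Loxl2*. Liver against lungs labelled off gave 2 with no filter, 2 with the replicate block, 2 in libraries without *mt-Co3* counts and 2 to 5 leaving out 1 library. Liver against lungs labelled on gave 3 with no fold threshold, 0 with no filter, 0 in libraries without *mt-Co3* counts and 0 to 2 leaving out 1 library. The day 7 difference of liver and lungs gave 5 in DESeq2, 2 with no filter, 3 with at least 10 counts in every library, 5 in 1 fit of all 12 groups, 2 with a term for *mt-Co3* counts, 2 in libraries without them, 0 with the replicate block and 0 to 7 leaving out 1 library. The cause was not tested.

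Genes called over the whole table moved more: pancreas day 7 from 192 to 533 in DESeq2, 549 with no filter and 42 in the fit of all 12 groups; liver day 7 from 71 to 2887, 977 and 3097; pancreas day 14 from 661 to 16 in the fit of all 12 groups. With the replicate block the genes called went from 4 to 109 in lungs at day 14, from 192 to 0 in pancreas and from 71 to 0 in liver at day 7, and from 305 to 0 in the day 7 difference. In lungs at day 14 libraries 3 and 4 correlated best with their own number, and 1 and 2 with each other's. The block changed no other call of a member beyond those given, apart from 1 more in liver against pancreas labelled off (3).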
